A study of Marchantia polymorpha and Arabidopsis thaliana and Oryza sativa Japonica Group with 80 samples.

Results

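Salicylic acid is the plant hormone of defence against biotrophic pathogens, and 10 Arabidopsis genes that make, carry, sense or report it were followed here through salt treatment. The rule names them by identifier, as known pathway members, and uses no measured value, though earlier results of these data were known when they were chosen. They are ICS1 (AT1G74710), EDS5 (AT4G39030), PBS3 (AT5G13320), EDS1 (AT3G48090), PAD4 (AT3G52430), NPR1 (AT1G64280), NIMIN1 (AT1G02450), PR1 (AT2G14610), PR2 (AT3G57260) and PR5 (AT1G75040). The mutant experiment counts 34218 genes and lists all 10. The time course table has 24060 genes and lists 7 of them, without EDS1, PAD4 and EDS5.

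RNA was sequenced from whole seedlings that were 7 days old and had been raised in liquid MS medium under continuous light, before and after a change to 100 mM NaCl. The time course holds wild-type seedlings of the laboratory strain Col-0 at 0 h and at 7 later times up to 72 h, with 2 libraries per time. The mutant experiment holds a line labelled wrky25/33, described as a knockout mutant, and wild-type Col-0 at 0, 2 and 24 h, with 3 libraries per group, numbered as batches 1 to 3. Neither experiment has untreated libraries after 0 h, so the effect of salt cannot be told apart from that of the hours that passed. The labels do not say how WRKY25 and WRKY33 were disrupted. Each group of the mutant experiment has 1 library of each batch.

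In Arabidopsis most pathogen-induced salicylic acid starts from chorismate in the plastid, where ICS1 (isochorismate synthase) acts. EDS5 carries isochorismate out of the plastid, and PBS3 joins it to glutamate, giving a conjugate that decays to salicylic acid. EDS1 and PAD4 form a lipase-like pair that relays signals from immune receptors and raises synthesis. NPR1 binds the hormone and acts with TGA transcription factors on target genes, among them NIMIN1, whose protein binds NPR1, and the pathogenesis-related genes PR1, PR2 (a glucanase) and PR5 (thaumatin-like), the usual readouts of the pathway.

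Libraries held 18404537 to 24148376 counts in the time course and 17431071 to 41887006 in the mutant experiment. Levels are given as CPM, the count of a gene relative to the scaled size of its library, a scale that does not allow genes to be compared with each other because it ignores their length. The genes that name the mutant line were not lower in it. WRKY25 (AT2G30250) had log2 fold changes of 0.16, -0.06 and 0.07 in the line against Col-0 at 0, 2 and 24 h, and WRKY33 (AT2G38470) had -0.22, 0.18 and 0.07, with adjusted p of at least 0.9998 by edgeR's quasi-likelihood test. A count over the whole gene does not show whether the transcript is intact, so the group is called the line labelled wrky25/33. Some libraries stood apart in WRKY33: batch 3 at 0 h had 164 CPM in the line and 229 CPM in Col-0, while the other 16 libraries of that experiment had 18.1 to 47.9 CPM. In the time course replicate 2 at 72 h had 262 CPM and replicate 1 had 83.4 CPM. In bulk tissue fewer cells of a type and less RNA per cell cannot be told apart.

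The time course asked how transcripts change over 3 days in salt. ICS1 had the smallest adjusted p among the members over the 8 times, with a high point at 1 h, a low from 12 to 48 h and values in between at 72 h. PR1 fell late. PR5 peaked at 1 h from a very low level. NPR1 kept within a narrow range, and PBS3 had its lowest values at 12 and 24 h and widely spread ones afterwards.

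ICS1 had 35.2 and 35.5 CPM (0 h), 50.2 and 45.1 (1 h), 41.9 and 37.4 (3 h), 27.3 and 29.7 (6 h), 19.2 and 17.8 (12 h), 18.1 and 18.2 (24 h), 23.8 and 18.4 (48 h), and 23.0 and 31.6 (72 h). From 6 h on, every library lay below both 0 h libraries, and both 1 h libraries lay above them. ICS1 fell by 0.93 ± 0.16 on the log2 scale at 12 h against 0 h (SE, n = 2 each, edgeR adjusted p = 0.00835), by 0.96 ± 0.16 after 24 h (adjusted p = 0.00353) and by 0.74 ± 0.16 after 48 h (adjusted p = 0.00751). The difference of 0.43 ± 0.16 at 1 h did not pass the threshold of 0.05 (adjusted p = 0.104), and neither did -0.37 ± 0.16 at 72 h (adjusted p = 0.11). Replicates stood 31.6 and 23.0 CPM (72 h), and without the higher one, replicate 2, the 72 h value was -0.62 with an adjusted p of 0.0371. The call at 12 h was lost without either 0 h library or without replicate 2 at 12 h (adjusted p 0.0601 to 0.0635), and the call at 48 h without replicate 2 at 48 h (adjusted p = 0.0913).

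PBS3 had 7.59 and 7.24 CPM (0 h), 8.02 and 10.4 (1 h), 6.07 and 5.15 (3 h), 4.00 and 4.42 (6 h), 3.79 and 2.51 (12 h), 3.63 and 2.23 (24 h), 11.7 and 4.29 (48 h), and 7.27 and 19.7 (72 h). The libraries from 3 to 24 h all lay below both 0 h libraries, while at 48 h the replicates lay on either side of them and at 72 h 1 lay between them and 1 above. Against 0 h PBS3 differed after 12 h by -1.23 ± 0.50 (adjusted p = 0.196), after 24 h by -1.33 ± 0.50 (adjusted p = 0.0997) and after 72 h by 0.86 ± 0.47 (adjusted p = 0.204), by edgeR. These did not pass the threshold in the model of all 16 libraries. In a model of the compared groups alone, where the spread at 48 and 72 h does not enter, PBS3 passed at 6, 12 and 24 h (adjusted p 0.0274, 0.0189 and 0.0154), and by DESeq2 at 24 h (adjusted p = 0.0424). The 72 h value rests on single libraries: it was 1.41 without replicate 1 and -0.03 without replicate 2.

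NPR1 had 45.9 and 42.8 CPM at 0 h, 57.9 and 56.2 after 1 h, and 36.4 to 43.9 in all later libraries except replicate 2 at 72 h, which had 57.0. Both 1 h libraries lay above both 0 h libraries, with a log2 fold change of 0.36 ± 0.13 that did not pass the threshold (edgeR adjusted p = 0.0954). NIMIN1 had 0 to 8 counts in a library and 31 counts in all 16, too few for the test. Its highest count, 8, was in replicate 2 at 12 h, and both 24 h libraries had 0 counts, which allows up to 3 counts in a library, or 0.121 and 0.134 CPM.

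PR1 was counted at a low level, with 1.79 and 1.45 CPM (0 h), 1.23 and 1.28 (1 h), 1.13 and 1.52 (3 h), 1.5 and 1.15 (6 h), 0.673 and 1.33 (12 h), 0.767 and 0.759 (24 h), 0.213 and 0.386 (48 h), and 0.167 and 0.497 (72 h). All libraries from 12 h on lay below both 0 h libraries, and the 48 and 72 h libraries were the lowest of the series. In counts these are 41 and 29 before salt, 5 and 9 after 48 h, and 4 and 10 after 72 h. PR1 fell by 2.41 ± 0.49 on the log2 scale at 48 h against 0 h (edgeR adjusted p = 0.00497) and by 2.31 ± 0.49 at 72 h (adjusted p = 0.0059). In a model of the 0 and 72 h groups alone the second call was lost (adjusted p = 0.0541). At 24 h the value was -1.08 ± 0.43 (adjusted p = 0.124).

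PR5 had 0.131 and 0.399 CPM (0 h), 1.06 and 1.03 (1 h), 0.442 and 0.586 (3 h), 0.333 and 0.363 (6 h), 0.126 and 0.102 (12 h), 0.0807 and 0.179 (24 h), 0.128 and 0.343 (48 h), and 0.669 and 0.497 (72 h). The 1 h libraries, with 25 and 17 counts, were the highest of the series and did not overlap those at 0 h, with 3 and 8 counts. PR5 rose at 1 h, with a log2 fold change of 1.99 ± 0.54 (edgeR adjusted p = 0.0262). The call rests on few reads: it was lost without replicate 1 at 0 h (1.38, adjusted p = 0.234), without either 1 h library (adjusted p 0.0893 and 0.0748), in a model of the 0 and 1 h groups alone (adjusted p = 0.0936) and by DESeq2 (adjusted p = 0.0732). PR2 had 64 counts in all 16 libraries, at most 12 in one, and was not tested. It had 1 and 1 counts at 24 h, against 8 and 8 at 0 h.

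**Figure D1:**
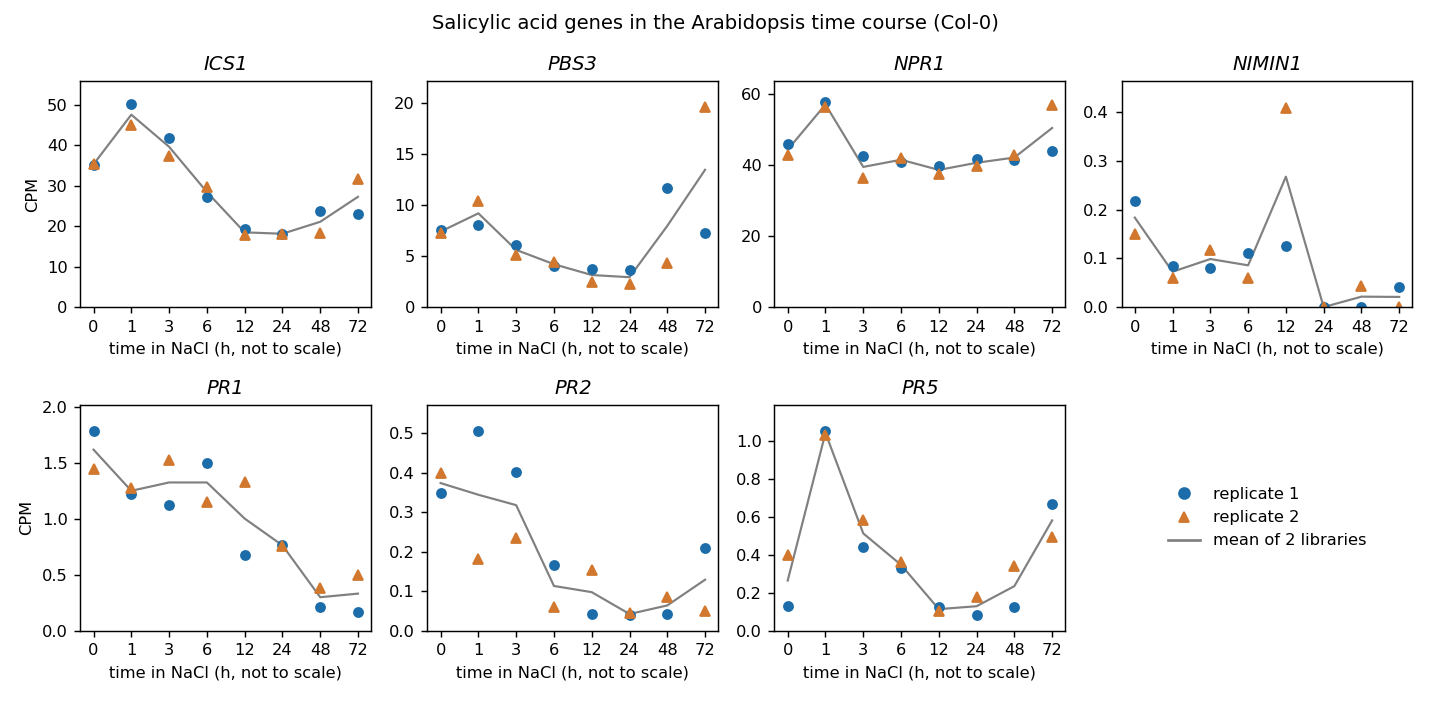
Level of the 7 listed genes in the Arabidopsis time course, in CPM (vertical axis from 0, a scale of its own for each gene) against hours in NaCl (horizontal axis, evenly spaced and not to scale). Points are the 2 libraries of each time and the line joins their means. ICS1 is highest at 1 h (50.2 and 45.1 CPM) and lowest at 12 and 24 h, PR1 is lowest at 48 and 72 h, and PR5 peaks at 1 h.

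Of the 5 members tested, edgeR called 1 after 1 h (PR5, where 14.2% of all 15407 tested genes were called), 0 after 3 h (15%) and 0 after 6 h (6.5%). It called 1 after 12 h (ICS1, 4.24%), 1 after 24 h (ICS1, 12.6%), 2 after 48 h (ICS1 and PR1, 22.0%) and 1 after 72 h (PR1, 24.8%). At 3 and 6 h no member had an unadjusted p under 0.05, and DESeq2 called 0 at either time. A test for any difference among the 8 times called 5 of 5, with edgeR adjusted p of 0.000137 for ICS1, 0.00646 for PR5, 0.00738 for PR1, 0.0187 for PBS3 and 0.0271 for NPR1, but 48.7% of all genes were called by that test too. The NPR1 call was lost when 1 of 5 libraries was left out (replicate 1 or 2 at 1 h, replicate 1 at 6 h, replicate 1 or 2 at 24 h, adjusted p 0.0501 to 0.09). With 2 libraries a time, groups that do not overlap were common: 48.8% (1 h), 53.1% (3 h), 58.9% (6 h), 49.2% (12 h), 63.9% (24 h), 66.5% (48 h) and 62.7% (72 h) of tested genes. The summed level of 6 shoot markers was 52400 and 81620 CPM (0 h), 82310 and 98270 (6 h), 43230 and 48980 (24 h), 37840 and 39990 (48 h), and 37820 and 42760 (72 h), with none at 0. EdgeR called 1 of the 6 lower after 24 h and 2 lower after 48 h and after 72 h. The 5 listed root markers summed to 51.0 and 69.5 CPM (0 h), 237 and 255 (3 h), 182 and 206 (6 h), 49.6 and 61.5 (24 h), 43.2 and 55.6 (48 h), and 49.2 and 73.8 (72 h). Of these 5, edgeR called 3 higher after 3 h, 2 higher after 6 h, 1 lower after 24 h, 2 lower after 48 h, and 1 higher and 1 lower after 72 h. The part of the root and shoot markers in the members' values was not tested.

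The mutant experiment asked how the line labelled wrky25/33 and Col-0 respond to the same salt at 2 and 24 h. In both, ICS1 had its highest values at 2 h and fell by 24 h, and EDS1 fell by 24 h. ICS1, and at lower counts PBS3 and EDS5, lay higher in the line than in Col-0 in each batch at each time, before salt as well as after it. The lowest PBS3 ratio was 1.00, and the EDS5 order held only for reads that lie over EDS5 alone. No member passed the test between genotypes at a single time, and none passed for a genotype difference in the salt response.

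ICS1 had 13.5, 29.8 and 17.8 CPM in batches 1, 2 and 3 of the line at 0 h, 42.1, 50.4 and 35.3 (2 h), and 7.62, 11.1 and 9.75 (24 h). In Col-0 it had 10.9, 17.8 and 12.8 CPM (0 h), 24.4, 27.9 and 19.8 (2 h), and 4.70, 9.76 and 3.62 (24 h). Within each genotype the 3 times did not overlap, 2 h being highest and 24 h lowest. ICS1 changed at 24 h against 0 h by -1.11 ± 0.34 on the log2 scale in the line (SE, n = 3 each; edgeR adjusted p = 0.0335) and by -1.19 ± 0.34 in Col-0 (adjusted p = 0.0257). At 2 h ICS1 differed from 0 h by 1.06 ± 0.33 in the line (adjusted p = 0.0756) and by 0.79 ± 0.33 in Col-0 (adjusted p = 0.15). The deposited condition sheet calls the replicate number a batch, and with batch in the model ICS1 rose at 2 h in the line (1.11 ± 0.20, edgeR adjusted p = 0.00186) and in Col-0 (0.82 ± 0.20, adjusted p = 0.00893).

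PBS3 had 1.73, 5.04 and 4.68 CPM in the line at 0 h, 2.92, 5.33 and 1.98 (2 h), and 1.19, 1.95 and 2.18 (24 h). In Col-0 it had 1.14, 2.64 and 4.67 CPM (0 h), 1.18, 3.06 and 1.72 (2 h), and 0.515, 1.56 and 1.49 (24 h). The 2 genotypes overlapped at every time, while each batch was lower at 24 h than at 0 h. The change at 24 h was -1.12 ± 0.56 in the line (edgeR adjusted p = 0.172) and -1.22 ± 0.58 in Col-0 (adjusted p = 0.15). With batch in the model PBS3 fell in the line (-1.02 ± 0.38, adjusted p = 0.0474) and in Col-0 (-1.22 ± 0.41, adjusted p = 0.0301). In a fit without batch that left out batch 3 at 0 h, PBS3 was called in neither genotype. With 1 library left out, again without batch, the change was -1.46 to -0.88 in the line and -1.59 to -0.68 in Col-0.

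EDS5 had 1.06, 1.71 and 2.89 CPM in the line at 0 h, 1.65, 1.27 and 2.69 (2 h), and 0.609, 1.21 and 1.31 (24 h). In Col-0 it had 0.238, 1.09 and 1.74 CPM (0 h), 0.267, 0.855 and 1.48 (2 h), and 0.386, 0.849 and 0.373 (24 h). The line was the higher of each pair. These values hold a small part of its reads: the counting does not use strand, and 8049 of 8573 reads over EDS5 were set aside as ambiguous, leaving 524. The files hold no coordinates, so the gene that shares these reads was not shown. AT4G39040, taken here as the neighbour, had 21874 reads set aside. Reads of EDS5 and of an overlapping gene cannot be told apart where they share a stretch.

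EDS1 had 11.4, 14.5 and 21.4 CPM in the line at 0 h, 17.8, 18.5 and 30.4 (2 h), and 9.17, 7.35 and 8.19 (24 h). In Col-0 it had 11.7, 13.1 and 23.2 CPM (0 h), 15.4, 17.7 and 27.6 (2 h), and 6.82, 5.71 and 5.86 (24 h). The 24 h libraries lay below all 0 h and 2 h libraries of their genotype. EDS1 changed by -0.94 ± 0.31 at 24 h against 0 h in the line (edgeR adjusted p = 0.0439) and by -1.39 ± 0.31 in Col-0 (adjusted p = 0.00777). Batch 3 at 0 h, the batch high in WRKY33, held the highest 0 h values, and without it in either genotype the change was -0.66 ± 0.27 in the line (adjusted p = 0.138) and -1.03 ± 0.27 in Col-0 (adjusted p = 0.0322). EDS1 has a close copy, EDS1B (AT3G48080), so its counts are uncertain where reads fit either gene.

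The ICS1 calls at 24 h also depended on single libraries and batches. Without batch 3 at 0 h in both genotypes ICS1 changed by -1.21 ± 0.38 in the line (edgeR adjusted p = 0.0631) and by -1.26 ± 0.39 in Col-0 (adjusted p = 0.0527), so the size held and the call was lost. In the line it was also lost without batch 2 or 3 at 0 h or without any 24 h library of the line (adjusted p 0.0507 to 0.178). In Col-0 it was lost without batch 2 at 0 h or without batch 1 or 3 at 24 h (adjusted p 0.104 to 0.115). The EDS1 call in the line was lost in 9 of 18 such fits (adjusted p 0.0504 to 0.199), and in Col-0 in none of 18. With batch in the model ICS1 and EDS1 had adjusted p of 0.00144 and 0.00548 in the line and 0.000617 and 0.000464 in Col-0.

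PAD4, the partner of EDS1, was called at neither time. It had 24.3, 37.1 and 30.5 CPM in the line at 0 h, 25.1, 41.8 and 26.2 (2 h), and 25.2, 26.4 and 26.8 (24 h). In Col-0 it had 30.2, 28.4 and 39.7 CPM (0 h), 25.6, 25.1 and 29.5 (2 h), and 24.4, 22.3 and 25.7 (24 h). Its change at 24 h was -0.23 ± 0.20 in the line (edgeR adjusted p = 0.443), where the groups overlapped, and -0.44 ± 0.20 in Col-0 (adjusted p = 0.136), where they did not. NPR1 lay between 37.5 and 48.5 CPM in the line and between 32.1 and 53.0 CPM in Col-0 over all 3 times. Its changes at 24 h were 0.07 ± 0.18 in the line and 0.01 ± 0.18 in Col-0.

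The PR genes were barely counted in these seedlings. PR1 had 1 count in all 18 libraries together, in batch 3 of the line at 24 h, while the time course held 326 counts of it in 16 libraries. The 2 experiments were counted and scaled apart, and why they differ was not tested. PR5 had 214 counts in all, 0 to 39 in a library, and its change at 24 h was -0.80 ± 0.83 in the line and -1.91 ± 0.92 in Col-0 (edgeR adjusted p = 0.525 and 0.158). PR2 had 36 counts in all: in the line 0, 0 and 0 before salt, 1, 5 and 4 after 2 h, and 0, 15 and 8 after 24 h, and in Col-0 3 counts over all 9 libraries, 1 at 0 h and 2 at 24 h. It was left out by the filter on low counts, and without that filter PR2 was called at 24 h in the line (edgeR adjusted p = 0.0483), a call that rests on 23 counts in 2 libraries. NIMIN1 had 23 counts in all, at most 5 in a library.

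**Figure D2:**
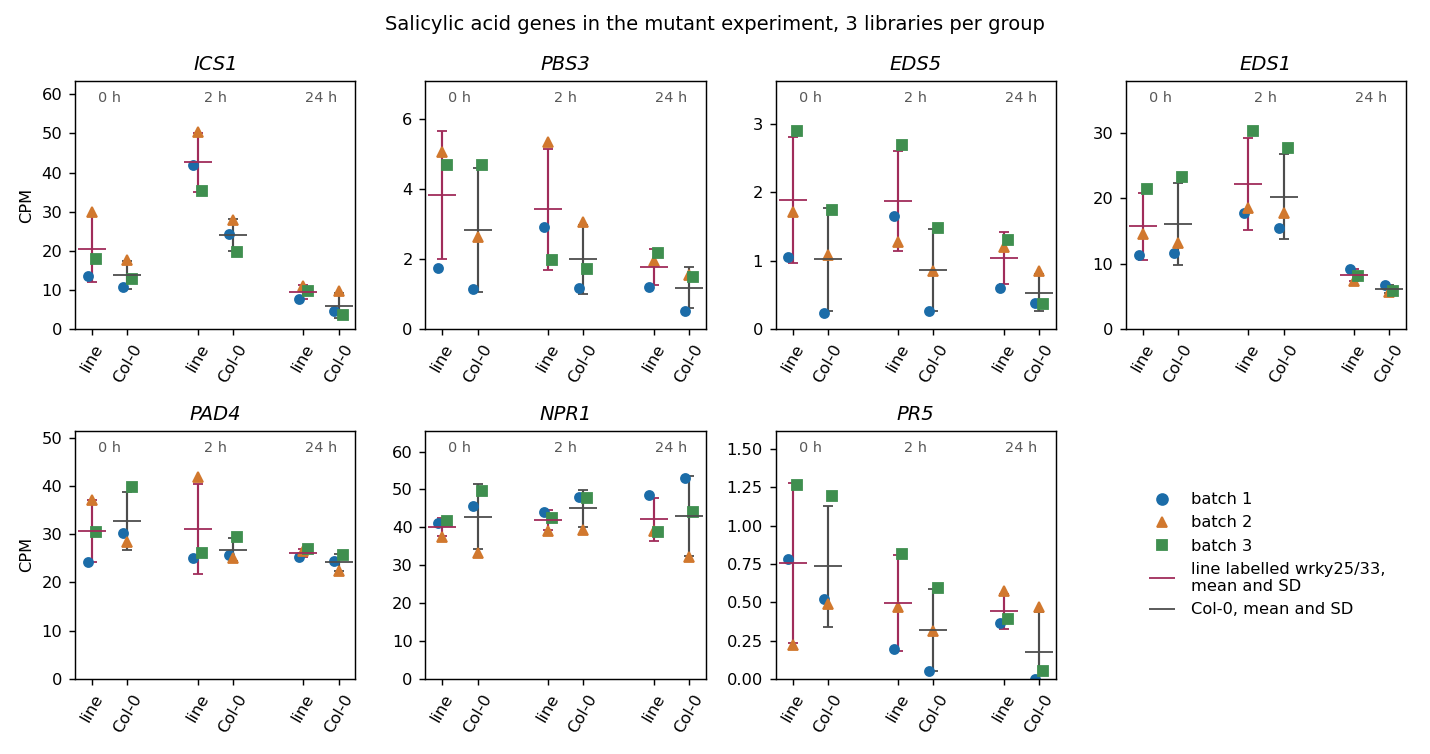
Level of the 7 tested members in the mutant experiment, in CPM (vertical axis from 0, a scale of its own for each gene), for the line labelled wrky25/33 (left of each pair) and Col-0 (right) at 0, 2 and 24 h. Points are libraries, coloured by batch; bars are the mean and SD of 3 libraries. ICS1 is highest at 2 h and lowest at 24 h in both, and at 2 h all 3 libraries of the line (35.3 to 50.4 CPM) lie above those of Col-0 (19.8 to 27.9 CPM).

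Of 7 members tested, edgeR called 2 at 24 h in the line (ICS1 and EDS1, where 18.5% of all 19316 tested genes were called) and 2 in Col-0 (the same genes, 18.7%). At 2 h it called 0 in the line (5.86%) and 0 in Col-0 (9.58%), with 1 member, ICS1, at an unadjusted p under 0.05 in each. DESeq2 called ICS1 at 2 h in the line and none in Col-0. With batch in the model 3 were called at 24 h in the line (36.3% of all genes) and 3 in Col-0 (35.7%), and 1 at 2 h in the line (18%) and 1 in Col-0 (25.0%). In a model of the 0 and 24 h groups of Col-0 alone, no member was called there. Groups that did not overlap were those of ICS1 and EDS1 at 24 h in the line (2 of 7 members, against 40.1% of all genes), of ICS1, EDS1, PAD4 and PR5 in Col-0 (4 of 7, against 29.4%), and of ICS1 at 2 h in the line (1 of 7, against 27.3%) and in Col-0 (1 of 7, against 32.2%). The summed level of the shoot markers was 36400 to 56520 CPM at 24 h in the line, against 25840 to 36940 CPM at 0 h, and 34950 to 51360 CPM at 24 h in Col-0, against 22180 to 36010 CPM at 0 h. This sum moved in the opposite direction to that of the time course, but single shoot markers differed. CAB3, called lower at 24 h in the time course (-1.17), had log2 fold changes of -0.62 in the line and -0.52 in Col-0. GLK1 had -0.72 in the line and -0.47 in Col-0, and none of these 4 values was called. The median of the 6 shoot markers was 0.34 in the line and 0.37 in Col-0. The part of these markers was not tested. The 8 root markers summed to 65.8 to 85.2 CPM at 24 h in the line, against 61.3 to 84.9 CPM at 0 h, and to 77.3 to 81.8 CPM at 24 h in Col-0, against 66.5 to 96.9 CPM at 0 h. At 24 h 1 of these 8 was at 0 in all 3 libraries of each genotype. Single root markers moved where the sum did not show it. Of the 6 root markers tested, edgeR called 2 lower at 24 h in the line and 4 lower in Col-0, and 0 higher in either. Of the 6 shoot markers 1 was called higher in each genotype. The part of the root markers was not tested either.

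**Figure D3:**
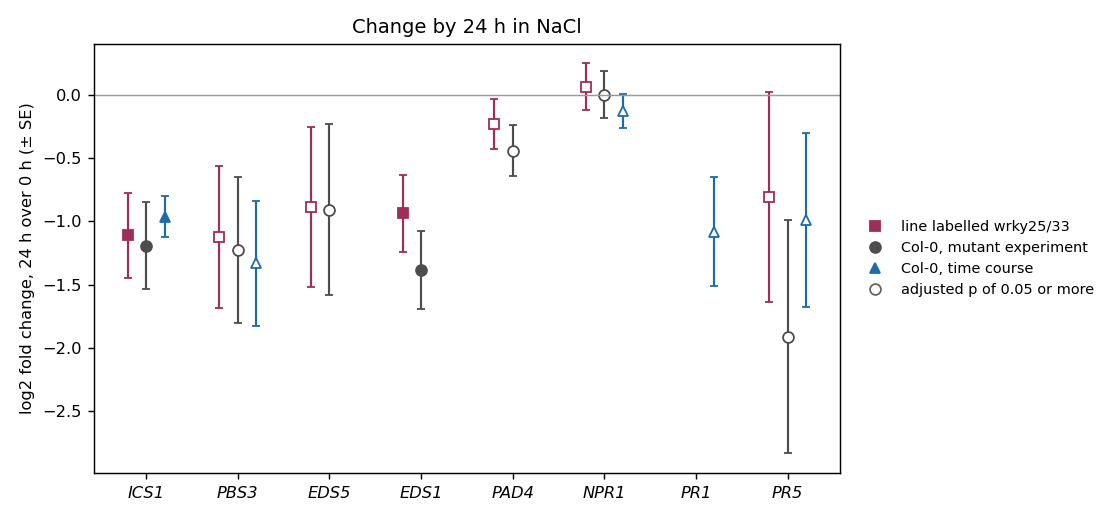
Log2 fold change at 24 h over 0 h (vertical axis, bars are SE) of each tested member in the line labelled wrky25/33, in Col-0 of the mutant experiment and in Col-0 of the time course. Filled points have an edgeR adjusted p below 0.05: ICS1 in all 3, and EDS1 in both groups of the mutant experiment (EDS1, PAD4 and EDS5 are not listed in the time course, and PR1 was not tested in the mutant experiment). ICS1 lies at -1.11, -1.19 and -0.96.

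The comparison of genotypes asked whether these genes differ in the line labelled wrky25/33 at each time. ICS1 differed from Col-0 by 0.56 ± 0.33 before salt, 0.83 ± 0.33 after 2 h and 0.64 ± 0.34 after 24 h (log2, SE, n = 3 each), each with an edgeR adjusted p of at least 0.9998. That fit leaves out batch, which pairs these libraries. Over 7 alternative fits, including that with batch, the lowest ICS1 adjusted p (edgeR or DESeq2) was 0.9999 at 0 h, 0.182 at 2 h and 0.405 at 24 h. With batch in the model 0 members were called at each time. The ICS1 groups overlapped at 0 and 24 h and not at 2 h, and 7.2% of all tested genes did not overlap at 2 h. No member was without overlap at 0 h, where 3.6% of all genes were. Of 7 members edgeR called 0 at each of 0, 2 and 24 h, where 0.155%, 0.176% and 0.181% of all genes were called. At an unadjusted p under 0.05 there were 0, 1 (ICS1) and 0, and DESeq2 called 0 at each time. EDS1 did not overlap at 24 h (9.17, 7.35 and 8.19 CPM in the line, against 6.82, 5.71 and 5.86 CPM in Col-0), as was so for 4.86% of all genes. Of 14 interactions of genotype and salt, 0 were called by edgeR or by DESeq2 and 0 had an unadjusted p under 0.05.

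The same values were then set side by side within batches. Set against Col-0 of the same batch and time, ICS1 was higher in the line in 9 of 9 pairs, with ratios of 1.14 to 2.69 and a median of 1.68. PBS3 was higher in 9 of 9, with ratios of 1.00 to 2.48 and a median of 1.52, and EDS5 in 9 of 9, with ratios of 1.42 to 6.19 and a median of 1.66. Among all 19316 tested genes 1.49% were higher in the line in all 9 pairs and 1.19% were lower in all 9. PR5 was higher in 8, EDS1 in 7, PAD4 in 5 and NPR1 in 2 of the 9. The 3 times of a batch share that batch, so the pairs are not 9 independent observations. For EDS5 the order holds only for reads that lie over it alone: when the reads set aside as ambiguous were counted as well, it was higher in the line in 3 of 9 pairs.

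A contrast of the mean over the 3 times, added after these pairs had been seen, gave ICS1 0.68 ± 0.19 higher in the line on the log2 scale (edgeR, unadjusted p = 0.00311, adjusted p = 0.349), with 0 of 7 members and 0.502% of all genes called. The unadjusted p under 0.05 were those of ICS1 and EDS5, and DESeq2 called 0. With batch in the model ICS1 was called, at 0.69 ± 0.12 (adjusted p = 0.00636), as were 0.932% of all genes. ICS1 was also called without Col-0 batch 2 at 24 h (0.86, adjusted p = 0.0277), and by DESeq2 its adjusted p was 0.0773. PBS3 and EDS5 were not called, at 0.59 ± 0.33 and 0.97 ± 0.38 (adjusted p = 1 and 0.948), or with batch at 0.65 ± 0.23 and 1.04 ± 0.27 (adjusted p = 0.361 and 0.111). With the shared reads counted EDS5 stood at 0.01 ± 0.18.

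**Figure D4:**
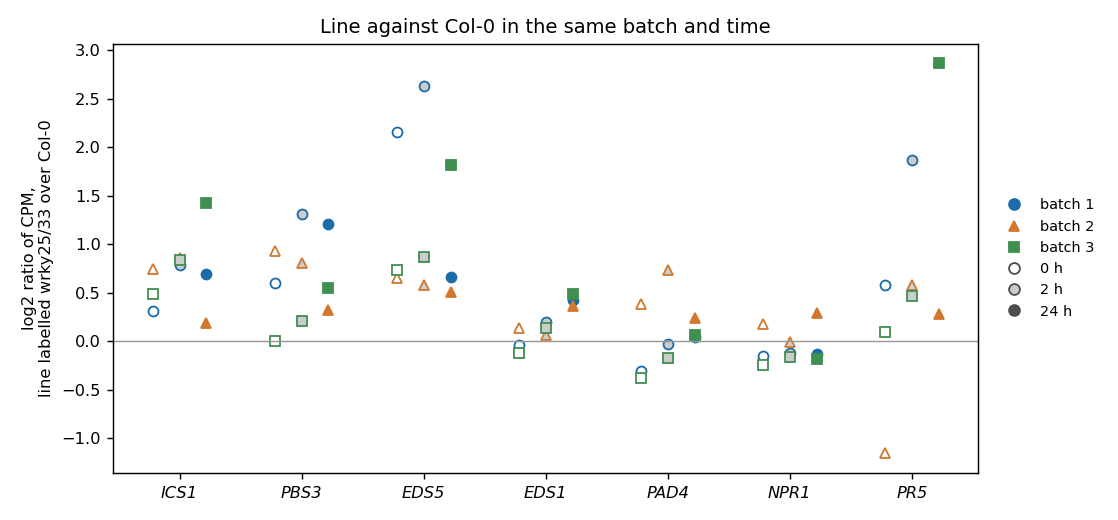
Log2 ratio of CPM in the line labelled wrky25/33 over Col-0 of the same batch and time, for each tested member. Where Col-0 had 0 CPM, as in PR5 at 24 h, the pair has no point. Symbols give the batch and fill the time. All 9 points of ICS1, PBS3 and EDS5 lie above 0, those of EDS1, PAD4 and NPR1 lie on both sides, and PR5 spreads widest at its low counts.

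The rest of the pathway was read from 46 further genes in 6 lists: synthesis, regulators of synthesis, hormone perception, hormone modification, pipecolate (a second immune signal made alongside) and target genes. In the time course 31 of them were tested, and edgeR called 4 higher and 3 lower after 1 h (14.2% of all genes being called), 3 and 0 after 3 h (15%), 2 and 1 after 6 h (6.5%), 2 and 1 after 12 h (4.24%), 2 and 5 after 24 h (12.6%), 1 and 5 after 48 h (22.0%), and 6 and 5 after 72 h (24.8%). In the mutant experiment 39 were tested, and at 24 h 6 rose and 4 fell in the line (18.5% of all genes being called) and 6 and 4 in Col-0 (18.7%). At 2 h 2 rose and 0 fell in the line (5.86%) and 4 and 0 in Col-0 (9.58%). The median change of these 39 at 24 h was -0.16 in the line, where that of all tested genes was -0.03, and -0.01 in Col-0, where that of all tested genes was -0.01. In the time course the median of the 31 at 24 h was -0.31, where that of all tested genes was 0.01. Between genotypes edgeR called 0 of 39 at each of 0, 2 and 24 h, with 0, 2 and 1 at an unadjusted p under 0.05, and DESeq2 called 0 at each.

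Among synthesis genes ICS2 (AT1G18870), the second isochorismate synthase, rose after 1 h (1.29 ± 0.30, edgeR adjusted p = 0.0105) and 3 h (1.82 ± 0.30, adjusted p = 0.00132) and fell after 24 h (-1.84 ± 0.33), 48 h (-3.23 ± 0.38) and 72 h (-2.43 ± 0.35). In the mutant experiment ICS2 was not called at 24 h, with -0.47 ± 1.29 in the line and 0.02 ± 1.25 in Col-0 (adjusted p = 0.832 and 0.993), nor at 2 h, with 2.45 ± 1.13 in the line and 3.04 ± 1.12 in Col-0 (adjusted p = 0.236 and 0.101). PAL1 (AT2G37040), of the other route to the hormone by way of phenylalanine, rose at 2 h in the line (1.02 ± 0.20, adjusted p = 0.00743) and in Col-0 (0.96 ± 0.20, adjusted p = 0.0077), and in the time course at 3 h (1.31 ± 0.38) and 72 h (1.87 ± 0.39). Among regulators ACD6 (AT4G14400), a membrane protein that promotes synthesis, fell at 24 h in the line (-2.92 ± 0.60, adjusted p = 0.00563), in Col-0 (-3.47 ± 0.62, adjusted p = 0.00221) and in the time course (-1.49 ± 0.20, adjusted p = 0.0011). CPR5 (AT5G64930), a nuclear pore protein that holds back immunity, rose at 24 h in the line (0.75 ± 0.14) and in Col-0 (0.67 ± 0.14), and was not called in the time course (0.23 ± 0.12 at 24 h, adjusted p = 0.243).

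Of 7 tested genes that modify the hormone, 3 rose and 0 fell at 24 h in each genotype of the mutant experiment, where 10.1% of all tested genes rose in the line and 10.4% in Col-0. UGT74F2 (AT2G43820), a glucosyltransferase of salicylic acid, rose by 1.65 ± 0.30 in the line (edgeR adjusted p = 0.00291) and 1.90 ± 0.31 in Col-0 (adjusted p = 0.00125). In the time course it was lower at 1 h (-0.79 ± 0.18) and higher at 6 h (1.02 ± 0.18), 12 h (1.41 ± 0.18), 24 h (1.16 ± 0.18), 48 h (1.1 ± 0.18) and 72 h (0.79 ± 0.18), all called. DMR6 (AT5G24530), which hydroxylates salicylic acid, rose at 24 h by 2.09 ± 0.38 in the line and 2.22 ± 0.38 in Col-0 (adjusted p = 0.00257 and 0.00173).

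Of 11 perception genes tested in the mutant experiment 1 rose and 2 fell at 24 h in each genotype, a share near that of all genes called (18.5% in the line and 18.7% in Col-0). TGA1 (AT5G65210) rose by 0.83 ± 0.20 in the line and 0.79 ± 0.20 in Col-0 (edgeR adjusted p = 0.0106 and 0.0124), while TGA4 (AT5G10030), its closest relative among these transcription factors, fell, with changes of -0.80 ± 0.22 in the line and -0.94 ± 0.22 in Col-0 (adjusted p = 0.0202 and 0.00914). TGA1 was not called at 24 h in the time course (0.25 ± 0.22, adjusted p = 0.485), and TGA4 fell there (-0.61 ± 0.18, adjusted p = 0.0411). The target genes WRKY70 (AT3G56400) and WRKY54 (AT2G40750), related transcription factors downstream of NPR1, were lower late in the time course. WRKY70 fell at 1 h (-1.48 ± 0.45), 12 h (-2.15 ± 0.47), 24 h (-2.15 ± 0.46), 48 h (-2.26 ± 0.47) and 72 h (-2.12 ± 0.47), all called by edgeR. WRKY54 was counted rarely, with 0 and 1 counts at 48 h and 0 and 0 at 72 h, against 8 and 5 at 0 h, and edgeR called both times (adjusted p = 0.0126 and 0.00474). Against a floor of 3 counts in a library, WRKY54 was at least 2.18-fold lower at 72 h. Of 6 target genes tested at 72 h 3 fell and 1, GRXC9 (AT1G28480), rose, with 33 and 86 counts at 72 h, against 7 and 9 at 0 h (GRXC9 is named after its values were seen). At 72 h 24.8% of all tested genes were called in either direction. In the mutant experiment WRKY70 was not called at 24 h, with -1.0 ± 0.68 in the line and -1.08 ± 0.71 in Col-0 (edgeR adjusted p = 0.317 and 0.304). There 0 of 4 target genes tested were called at 24 h in either genotype by edgeR or by DESeq2, and 0 had an unadjusted p under 0.05. Of the pipecolate genes SARD4 (AT5G52810) rose at 24 h in the line (1.05 ± 0.18), in Col-0 (1.02 ± 0.18) and in the time course (1.66 ± 0.33). FMO1 (AT1G19250), which makes N-hydroxypipecolic acid, rose at 1 h (1.93 ± 0.40) and fell at 48 h (-2.05 ± 0.48). FMO1 was not called at 24 h in the mutant experiment, with -0.85 ± 0.77 in the line and -1.51 ± 0.86 in Col-0 (adjusted p = 0.461 and 0.231).

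PR3 (AT3G12500) and PR4 (AT3G04720), chitinase-type defence genes usually assigned to jasmonate and ethylene, were set beside the PR genes above. PR3 rose at 24 h in the line (2.20 ± 0.29, edgeR adjusted p = 0.000496) and in Col-0 (2.14 ± 0.30, adjusted p = 0.000659), and PR4 rose in the line (2.79 ± 0.34, adjusted p = 0.000319) and in Col-0 (2.96 ± 0.34, adjusted p = 0.000171). Of 10 such genes listed, 4 were tested there, and 2 rose and 0 fell at 24 h in each genotype. At that time 10.1% of all tested genes rose in the line and 10.4% in Col-0. In the time course 2 were tested. PR4 was not called there (0.09 ± 0.42 at 24 h, adjusted p = 0.917). The other, ORA59 (AT1G06160), a transcription factor of that pathway and named after its values were seen, was called lower at 1 h, with 2 and 1 counts at 1 h, against 16 and 14 at 0 h, and at no other time.

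Over the 16 time course libraries, 13671 genes tested in both experiments were ranked by the correlation of their log2 CPM with that of ICS1, as a description, since the libraries share times. The closest were AT3G21150 (Pearson r = 0.939), AT5G67450 (0.934), AT5G60840 (0.929) and AT3G15210 (0.915). Over the 18 libraries of the mutant experiment the same genes had r of 0.330, 0.763, 0.855 and 0.356 with ICS1. The closest to PR1 in the time course were AT5G16540 (0.928), AT3G61080 (0.918), AT1G64720 (0.918) and AT1G79310 (0.911), and PR1 gave no value in the mutant experiment.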

How the data were processed

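Per the submitters' processing notes reads were aligned with STAR to TAIR10; its version, the counter and the annotation: not given in the sources used here. The authors deposited expected counts for the time course, which were rounded, since 1.42% of values, in 973 genes, were not whole. For the mutant experiment the authors deposited counts, 1 sheet per library, of which the column for either strand was used; reads fell on both strands alike (49.8% to 50.4%), and the summary lines (3.95% to 5.87% unmapped, 4.94% to 5.99% ambiguous) were left out. The files hold identifiers without names or coordinates, and no Arabidopsis sequence was used here.

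The analysis used edgeR 4.0.16 (R 4.3.3): filterByExpr with the groups, TMM scaling, and in each experiment 1 quasi-likelihood fit to all libraries, without other covariates. Tests were two-sided, adjusted by Benjamini-Hochberg over all genes tested and called below 0.05. Each SE is the size of the log2 fold change over the square root of its F. Floors of 3 counts cover counting error only, while each SE also takes in the estimated spread between libraries. Alternatives were DESeq2 1.42.0, RLE scaling, no filter, the compared groups alone, batch as a block, and each library left out. Leaving out batch 3 at 0 h, counting shared reads, and the mean over 3 times were chosen after seeing the data. The code was tested on simulated counts. For the time course, at 48 h against 0 h, edgeR recovered 52% of 2-fold and 91% of 4-fold changes. For the mutant experiment, in Col-0 at 24 h against 0 h, it recovered 30% of 2-fold and 79% of 4-fold changes. Changes of 2-fold could therefore go uncalled.

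The members and lists were chosen with earlier results of these data known. Named genes are all members, WRKY25, WRKY33, the 2 genes of each list called in most contrasts, and the 4 genes most correlated with PR1 and ICS1; NIMIN1 was not tested. The series speaks of biological replicates without saying how they were grown, so p-values measure the spread between these libraries. The mutant experiment's condition sheet calls the replicate number a batch, and 45 of 45 same-batch pairs of libraries deviated together (r of 0.174 to 0.754, median 0.369), so the batch pairs the libraries there.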

Additional observations from a re-analysis of the deposited data

How the results depend on the processing

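The counts of members called moved as follows. With the compared groups alone they were 0 (1 h), 1 (6 h), 2 (12 h), 2 (24 h) and 0 (72 h) in the time course and 0 for Col-0 after 24 h. By DESeq2 they were 0 (1 h) and 2 (24 h) in the time course and 1 for the line after 2 h. With the replicate block they were 1 after 2 h in each genotype and 1 for the genotype mean, ICS1 each time. Without batch 3 at 0 h they were, after 24 h, 0 for the line and 1 for Col-0. With 1 library left out they ranged over 0 to 2 (1 h), 0 to 1 (12 h), 1 to 3 (24 h), 1 to 3 (48 h), 1 to 2 (72 h) and 4 to 6 (any difference) in the time course. For the line they ranged over 0 to 1 after 2 h and 0 to 2 after 24 h, for Col-0 over 1 to 3 after 24 h, and for the genotype mean over 0 to 1. RLE scaling moved none of these counts by more than 1.5 times. The cause was not tested.

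Signs turned only where no call stood. NPR1 in the line after 24 h was -0.037 to 0.138 with 1 library left out. In Col-0 it was -0.179 to 0.179, and it was -0.0017 with the replicate block and -0.053 with shared reads counted. EDS5 after 24 h was 0.0029 in the line and 0.25 in Col-0 with shared reads counted. PBS3 at 72 h was -0.026 to 1.41, by the 72 h library left out. For a chosen set of member results under all alternatives together, 941 values kept direction and side of the threshold, 37 lost a call, 19 gained one and 9 turned. The set does not hold PBS3 at 6 h or PR2, whose gained calls are given above.

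In the time course the numbers 1 and 2 did not pair all libraries: 26 of 56 same-number correlations were over 0.1 (r of -0.178 to 0.606, median 0.0869). Pairing of some libraries cannot be told from these values. The replicate block changed no member's call there. Calls over all genes moved by more than 1.5 times with the block in the mutant experiment: 3474 and 7021 for the line after 2 and 24 h, against 1131 and 3571 without it, and 4824 and 6893 for Col-0, against 1851 and 3616. With the compared groups alone Col-0 after 24 h had 61. Few counts per library limit PR1, PR2, PR5, NIMIN1 and EDS5.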
